A study of Homo sapiens with 36 samples.

Results

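NB4 cells that had received atorvastatin on top of all-trans retinoic acid (ATRA) were compared at 48 h with NB4 cells that had received ATRA without the statin. The members were chosen by their labels: 3 combination arrays and 3 ATRA arrays, 6 of the 36 arrays of the series, and every one of the 15308 named genes that passed the intensity filter was tested on them. NB4 is an established human cell line from acute promyelocytic leukaemia (APL). Per the labels' protocols, the cells of the combination were given ATRA 1 h before atorvastatin, and the doses are not given in the sources used here. The 4 groups at 48 h were ATRA plus atorvastatin (combination), ATRA, atorvastatin without ATRA, and control cells given neither, with 3 arrays in each group from 3 independent experiments on different days. All groups share 1 cell line, so the values describe that line and not APL in general. The question was what the statin adds to, or takes from, the expression pattern of ATRA-treated cells.

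ATRA binds the retinoic acid receptor, and in APL cells it releases the block that the PML-RARA fusion protein places on granulocyte maturation. Maturing cells stop making the proteins of the primary (azurophil) granules, begin to make secondary granule and phagocyte oxidase proteins, and acquire adhesion and chemoattractant receptors. Statins inhibit HMG-CoA reductase, the rate-limiting enzyme of the mevalonate pathway, so cells lack sterols, to which they respond with higher transcription of sterol synthesis genes, and isoprenoids, the lipids that anchor small GTPases to membranes.

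The arrays were Illumina Human-6 BeadChips, and values below are log2 intensities after background correction and quantile normalization, on which the median of all probes was 6.34 and the 90th percentile was 8.59. Median raw intensities were 78.5 to 107.4 on the combination arrays and 84.1 to 105.3 on the ATRA arrays. In experiments 1, 2 and 3 they were 152.2, 88 and 94.9 on the atorvastatin arrays of 48 h. On the control arrays of 48 h they were 170.6, 94.8 and 81, so both groups without ATRA were brightest in experiment 1. Within each of the 12 groups, arrays correlated at 0.965 to 0.993 (Pearson's r over the genes tested). The number of arrays limits the precision. At 48 h, the combination array of experiment 3 held 13 genes at least 2 log2 units below both other arrays of its group, the atorvastatin array of experiment 1 held 45 and the ATRA array of experiment 1 held 1. At 24 h, the libraries of experiment 1 labelled ATRA and atorvastatin went against their labels: ASB2, a retinoic acid target, read 6.71 in the first of these, against 10.69 and 10.50 on the other ATRA arrays, and 10.70 in the second, against 6.99 and 6.77 on the other atorvastatin arrays. They belong to no group at 48 h, but they enter the quantile normalization over 36 arrays; with the 48 h arrays normalized alone, 660 genes were called in place of the 673 given next. Of the promyelocyte markers, MPO was at 13.31, 12.88 and 13.49 on the combination arrays and 14.13, 13.71 and 13.97 on the ATRA arrays, while the 10 measured lymphoid markers averaged 7.19 to 7.21 on the combination arrays and 7.06 to 7.18 on the ATRA arrays. The 9 erythroid and megakaryocyte markers averaged 6.23 to 6.40 on the combination arrays and 6.35 to 6.44 on the ATRA arrays. No gene of either list was called, and 2 lymphoid and 0 erythroid or megakaryocyte genes had an unadjusted p under 0.05 in limma. Monocyte and macrophage markers averaged 7.13 to 7.16 on the combination arrays and 6.79 to 6.93 on the ATRA arrays, and 6 of 21 were higher in the combination; their part in the results was not tested.

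Addition of atorvastatin to ATRA changed 673 genes at 48 h (limma, Benjamini-Hochberg adjusted p with a threshold of 0.05), which is 4.4% of the genes tested. Of these, 417 were higher in the combination (2.72% of the genes tested) and 256 lower (1.67%), so 62.0% of the calls were rises. Large changes were almost all rises: 159 genes rose by at least 1 log2 unit and 18 fell by as much. The 3 combination arrays lay all above or all below the 3 ATRA arrays for 3144 genes, 20.5% of those tested. The share of rises depended on the scaling, at 94.4% of 730 calls after median scaling and 74.1% of 730 calls in the authors' normalized values. Fewer genes were called when the ATRA array (318) or the combination array (362) of experiment 1, or the ATRA array (374) or the combination array (371) of experiment 2, was left out, and 170 and 144 genes were called without any array of experiment 1 or experiment 2. In bulk RNA, more or fewer cells that express a gene and more or less RNA per cell cannot be told apart.

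**Figure D1:**
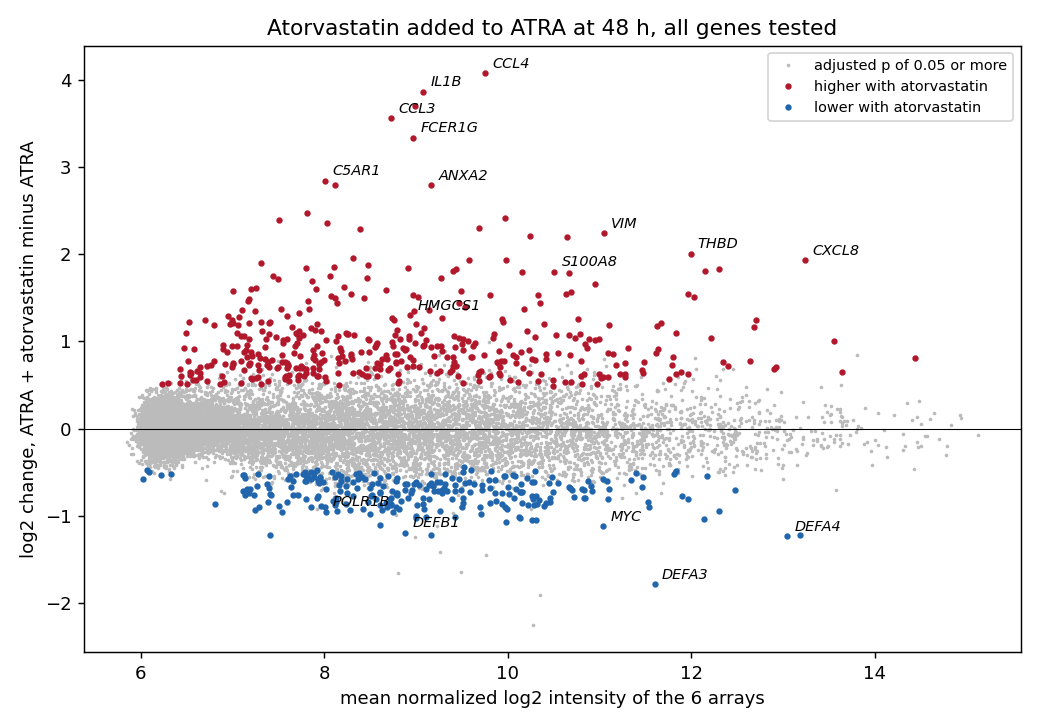
Log2 change at 48 h, ATRA plus atorvastatin minus ATRA, against the mean log2 intensity of the 6 arrays, 1 point per gene; red genes were higher and blue genes lower in the combination at an adjusted p under 0.05. The rises reach 4.07 (CCL4), whereas the called falls stop at -1.79 (DEFA3).

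The 2 largest rises were CCL4 and IL1B. CCL4, a chemokine that attracts monocytes and T cells, stood at 12.17, 12.29 and 10.91 on the combination arrays of experiments 1, 2 and 3, against 7.18, 7.15 and 8.82 on the ATRA arrays. The groups did not overlap, although in experiment 3 the combination array was the lowest of its group and the ATRA array the highest. The rise was 4.07 ± 0.39 log2 units (SE), or 16.8-fold (adjusted p = 7.76e-06).

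IL1B, the precursor of the inflammatory cytokine interleukin-1 beta, was at 11.14, 10.83 and 11.06 in the combination and at 6.995, 7.04 and 7.39 with ATRA. Atorvastatin cells had 6.75, 7.25 and 6.86 and control cells 6.35, 6.36 and 6.40, so that only the combination arrays held the gene far above the median of all probes. Its change was 3.87 ± 0.16 (14.6-fold, adjusted p = 3.2e-10).

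CCL3, a related chemokine that also attracts monocytes, was at 11.15, 11.10 and 9.29 in the combination and at 6.63, 7.09 and 7.13 with ATRA, a rise of 3.56 ± 0.35 (adjusted p = 1.13e-05). The near-identical CCL3L1 rose by 3.70 ± 0.30 (adjusted p = 1.91e-06). Cross-hybridization between this pair of copies was not tested, so each is uncertain.

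Vimentin (VIM), the intermediate filament of mesenchymal and blood cells, behaved differently from the cytokines. It stood at 12.51, 12.40 and 11.58 in the combination and 9.75, 10.15 and 9.88 with ATRA, against 12.91, 13.26 and 12.66 with atorvastatin and 12.34, 12.66 and 12.54 in control cells. Thus ATRA cells alone held low vimentin, and the combination arrays did not overlap with them. VIM was 2.24 ± 0.22 log2 units higher in the combination than with ATRA (adjusted p = 8.7e-06). Against control cells the combination differed by -0.35 ± 0.22, which did not pass the test (adjusted p = 0.344).

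**Figure D2:**
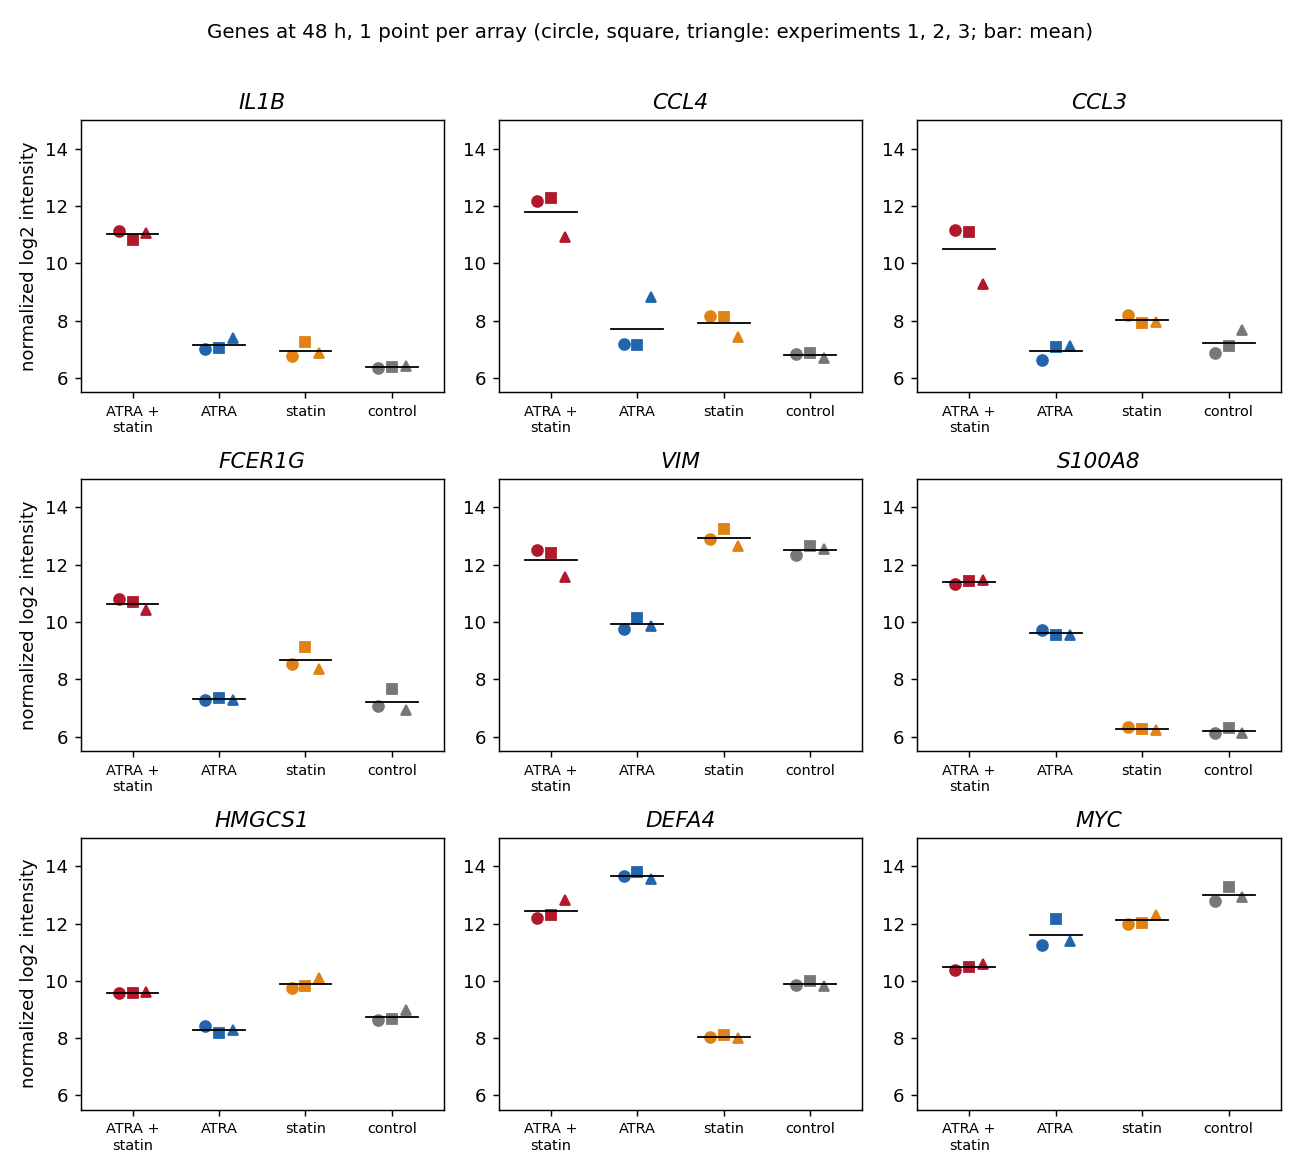
Normalized log2 intensity of 9 genes at 48 h in cells given ATRA plus atorvastatin, ATRA, atorvastatin and neither; each point is 1 array, its shape the experiment, and the bar the mean of 3. IL1B, CCL4, CCL3 and FCER1G are high in the combination, VIM is low with ATRA, S100A8 is high in both ATRA groups, HMGCS1 is high in both statin groups, DEFA4 is highest with ATRA, and MYC is lowest in the combination.

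Secreted inflammatory mediators were among the rises. Of 26 measured CC and CXC chemokines, 7 were higher in the combination and 0 lower (median log2 change 0.22, against -0.0034 over all genes tested). Besides CCL4, CCL3 and CCL3L1 these included CXCL10, a ligand of CXCR3, at 8.83, 9.36 and 10.40 in the combination and 6.63, 6.95 and 8.14 with ATRA. Its arrays did not overlap, but both groups were highest in experiment 3; the rise was 2.29 ± 0.38 (adjusted p = 0.0015). CXCL8, the main neutrophil attractant, was already among the brighter genes with ATRA and rose by 1.93 ± 0.24 to 14.21 ± 0.33 in the combination, against 12.28 ± 0.43 with ATRA (SD, n = 3 each, adjusted p = 0.000105). CCL7, a monocyte attractant, rose by 1.32 ± 0.14 (adjusted p = 2.17e-05). CCL20, the ligand of CCR6, rose by 1.22 ± 0.25 (adjusted p = 0.00841), a call that ended without the ATRA array of experiment 1 (1.03, adjusted p = 0.0679).

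Among 24 measured cytokines of activated phagocytes, 5 were higher and 0 lower. TNF, the tumour necrosis factor gene, was at 9.64, 9.61 and 8.99 in the combination and 7.10, 7.45 and 8.05 with ATRA. The difference was 1.88 ± 0.25 (adjusted p = 0.000178), and the atorvastatin arrays, at 9.42, 9.60 and 9.59, lay within the range of the combination arrays. IL1A, the second interleukin-1 gene, rose by 1.24 ± 0.17 (adjusted p = 0.000319), with arrays at 7.32, 7.33 and 7.32 in the combination and 5.85, 6.04 and 6.35 with ATRA. The ATRA arrays lay near or below the median of all probes (6.34). So did the ATRA means of CD86, CX3CR1, JUN, KLF2, KLF6, LY96 and TRAF1 below. The size of these rises is therefore limited by background and may be understated. SPP1, which encodes osteopontin, rose by 1.79 ± 0.35 (adjusted p = 0.00587), with an adjusted p of 0.053 and a change of 1.49 when the ATRA array of experiment 1 was left out.

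Genes of the NF-kappaB system were higher too. NF-kappaB is the transcription factor that drives much of the inflammatory response, and it switches on its own inhibitors. Of 19 measured subunits and feedback inhibitors, 8 were higher and 0 lower, with a median change of 0.59, the highest of the 42 lists. NFKBIA, the inhibitor that holds NF-kappaB in the cytoplasm, was at 11.68, 11.94 and 11.07 in the combination and 9.27, 9.97 and 10.09 with ATRA (1.78 ± 0.25, adjusted p = 0.000404). TNFAIP3, a ubiquitin-editing inhibitor, rose by 1.35 ± 0.21 (adjusted p = 0.000865), and TRAF1, a receptor adaptor, by 1.49 ± 0.16 (adjusted p = 2.17e-05). The subunit NFKB2 rose by 1.03 ± 0.19 and the nuclear inhibitor NFKBIZ by 1.03 ± 0.19 (adjusted p = 0.00413 and 0.00386). TNFAIP6, a secreted protein induced by tumour necrosis factor, was at 9.11, 9.49 and 8.55 in the combination and 6.54, 6.51 and 6.68 with ATRA, a rise of 2.47 ± 0.22 (adjusted p = 2.89e-06).

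Because these genes moved together, the 300 bases around their starts (250 before to 50 after, from RefSeq, GRCh38.p14) were searched on both strands for the NF-kappaB consensus. Promoters were matched for 12450 of the 15308 genes tested and 12.6% of those held a match, as did 16.8% of the 346 matched genes that rose and 13.9% of the 208 that fell. In the list of subunits and inhibitors, 7 of 16 promoters held one (43.8%), and in the chemokine list 10 of 20 (50%). Among the members that rose it was 4 of 6 in the first list and 2 of 5 in the second, and no match was found for CCL3, CCL7, CXCL8, TNF, IL1A or SPP1. Matches are shown in capitals for the chemokine CXCL10 (chr4:76023448-76023747, minus strand) and the inhibitors NFKBIA (chr14:35404700-35404999, minus strand) and TNFAIP3 (chr6:137867009-137867308, plus strand), whose first match begins 177, 81 and 67 bases before the start. IL1B (chr2:112836730-112837029, minus strand), the second largest rise, held none in this window and is given for comparison. A match is a description of letters and not evidence of binding.
CXCL10: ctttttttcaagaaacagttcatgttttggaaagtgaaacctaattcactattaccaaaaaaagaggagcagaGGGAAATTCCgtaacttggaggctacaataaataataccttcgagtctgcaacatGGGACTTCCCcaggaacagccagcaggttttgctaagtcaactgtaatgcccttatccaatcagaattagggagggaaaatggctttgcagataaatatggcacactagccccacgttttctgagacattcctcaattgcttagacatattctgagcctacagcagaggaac
NFKBIA: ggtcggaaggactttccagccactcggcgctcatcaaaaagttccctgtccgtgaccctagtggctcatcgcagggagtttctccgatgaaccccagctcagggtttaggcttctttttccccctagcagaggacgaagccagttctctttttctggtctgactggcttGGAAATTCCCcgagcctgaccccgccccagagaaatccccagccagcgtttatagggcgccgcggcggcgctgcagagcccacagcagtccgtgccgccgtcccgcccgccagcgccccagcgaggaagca
TNFAIP3: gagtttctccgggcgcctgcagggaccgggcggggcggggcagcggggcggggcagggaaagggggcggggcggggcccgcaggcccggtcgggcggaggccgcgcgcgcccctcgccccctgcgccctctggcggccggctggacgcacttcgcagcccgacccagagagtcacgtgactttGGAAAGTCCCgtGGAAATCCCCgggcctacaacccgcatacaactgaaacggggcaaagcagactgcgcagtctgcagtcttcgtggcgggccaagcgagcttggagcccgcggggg
IL1B: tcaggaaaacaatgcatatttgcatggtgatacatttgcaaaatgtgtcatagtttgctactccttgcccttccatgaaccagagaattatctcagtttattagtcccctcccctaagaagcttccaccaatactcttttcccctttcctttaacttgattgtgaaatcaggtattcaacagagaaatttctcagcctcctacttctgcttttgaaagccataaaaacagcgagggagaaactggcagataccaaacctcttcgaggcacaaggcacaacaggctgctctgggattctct

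Several receptors through which phagocytes sense their surroundings were higher in the combination. FCER1G, the shared signalling chain of Fc receptors, was at 10.82, 10.69 and 10.41 in the combination and 7.27, 7.36 and 7.27 with ATRA. The groups lay 3 log2 units apart, and the rise was 3.34 ± 0.21, or 10.1-fold (adjusted p = 6.19e-08). Of 21 measured genes of Fc receptors and ITAM signalling, 8 rose and 0 fell, although 5 were called without the ATRA array of experiment 1 and 5 without that of experiment 2. TYROBP, the adaptor also called DAP12, rose by 1.20 ± 0.13 (adjusted p = 2.72e-05), its partner TREM1 by 1.44 ± 0.20 (adjusted p = 0.000289) and the inhibitory receptor LILRB2 by 1.12 ± 0.15 (adjusted p = 0.000238).

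Of 16 measured chemoattractant receptors, 6 were higher and 0 lower. C5AR1, the receptor of complement fragment C5a, was at 9.52, 9.79 and 8.96 in the combination and 6.39, 6.54 and 6.83 with ATRA (2.84 ± 0.25, adjusted p = 2.89e-06). The formyl peptide receptors FPR1 and FPR2, which sense bacterial peptides, rose by 1.37 ± 0.14 and 1.35 ± 0.21 (adjusted p = 1.91e-05 and 0.000786). FPR2 reached 7.33 on the combination array of experiment 3, against 8.18 and 8.24 on the other two, and the ATRA arrays had 6.65, 6.33 and 6.72. CX3CR1, the fractalkine receptor, rose by 0.91 ± 0.13 (adjusted p = 0.000459). HAVCR2, which encodes the inhibitory receptor TIM-3, rose by 2.36 ± 0.18 (adjusted p = 8.8e-07).

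Of 18 measured leukocyte integrins and adhesion genes, 8 rose and 0 fell; the number was 2 without the ATRA array of experiment 1, 4 without the combination array of experiment 1 and 5 without the ATRA array of experiment 2. ITGAM, the CD11b integrin chain used as a marker of granulocyte maturation, was at 10.83, 10.58 and 10.22 in the combination, 8.65, 8.52 and 8.68 with ATRA, 7.42, 7.97 and 7.60 with atorvastatin and 6.82, 6.26 and 6.76 in control cells. The 4 groups did not overlap and stood in that order. The combination was 1.93 ± 0.19 above ATRA (adjusted p = 9.22e-06). ADGRE5, the adhesion receptor CD97, rose by 1.54 ± 0.17 (adjusted p = 2.72e-05) and PECAM1, an adhesion molecule of leukocytes and endothelium, by 1.09 ± 0.14 (adjusted p = 0.000196). PECAM1 was the 1 gene that passed among 11 epithelial and stromal markers.

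Monocyte and macrophage genes included FCN1, a lectin of monocytes, at 10.39, 10.33 and 10.32 in the combination and 8.45, 8.47 and 8.62 with ATRA (1.83 ± 0.16, adjusted p = 2.73e-06). The costimulatory ligand CD86 rose by 1.29 ± 0.14 (adjusted p = 3.16e-05) and CSF1R, the receptor of macrophage colony-stimulating factor, by 0.96 ± 0.17 (adjusted p = 0.00352). Lysozyme (LYZ), made by monocytes and granulocytes, was at 7.66 ± 0.15 in the combination and 6.60 ± 0.13 with ATRA (SD, n = 3 each, adjusted p = 0.000424), and it was also high with atorvastatin alone, at 8.12, 7.88 and 7.96. Inflammasome genes were called in 2 of 13 cases, among them NLRC4, a sensor that activates caspase-1, which rose by 1.61 ± 0.18 (adjusted p = 4.78e-05). Of 16 Toll-like receptors and their partners, 3 rose, among them LY96, the MD-2 partner of TLR4 (0.71 ± 0.14, adjusted p = 0.00489).

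S100 and annexin genes, which encode calcium-binding proteins, rose in 8 of 25 cases and fell in 0. S100A4 was at 11.32, 11.68 and 11.04 in the combination and 8.97, 9.24 and 9.20 with ATRA, and atorvastatin cells held it at 11.18, 10.85 and 11.02 against 8.60, 8.79 and 9.22 in control cells. Both statin groups therefore stood above both groups without statin; the change with ATRA was 2.21 ± 0.18 (adjusted p = 2.23e-06) and that without ATRA 2.14 ± 0.18 (adjusted p = 1.58e-05). S100A6 rose by 2.31 ± 0.31 with ATRA and by 2.16 ± 0.31 without it (adjusted p = 0.00025 and 0.00194), and ANXA1, the annexin that dampens leukocyte migration, by 2.42 ± 0.23 and 1.94 ± 0.23 (adjusted p = 7.76e-06 and 0.000427). ANXA2, a cofactor of plasminogen activation, was at 10.56 ± 0.49 in the combination, 7.77 ± 0.13 with ATRA, 10.54 ± 0.48 with atorvastatin and 8.87 ± 0.19 in control cells (SD, n = 3 each). S100A8, the calprotectin subunit that accumulates in neutrophils, followed another pattern: 11.33, 11.42 and 11.46 in the combination, 9.71, 9.56 and 9.55 with ATRA, 6.33, 6.26 and 6.24 with atorvastatin and 6.12, 6.30 and 6.14 in control cells. Atorvastatin arrays lay beside control arrays, near the median of all probes, and the combination was 1.80 ± 0.12 above ATRA (adjusted p = 1.87e-07). S100A9 and S100A12 changed by 0.43 and 0.42 and did not pass (adjusted p = 0.204 and 0.168 in limma).

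Of 35 measured vimentin, matrix protease and actin regulator genes, 7 rose and 0 fell, or 4 without the ATRA array of experiment 1 or experiment 2. Apart from VIM these included LMNA, a nuclear lamin (1.06 ± 0.18, adjusted p = 0.00233), VCL, the focal adhesion protein vinculin (1.07 ± 0.17, adjusted p = 0.00117), and TIMP2, a metalloprotease inhibitor (0.78 ± 0.14, adjusted p = 0.0031). No matrix protease of this list passed. MMP9, the gelatinase of neutrophil granules, rose as well (1.20 ± 0.22, adjusted p = 0.00395). It is counted below, with the granulocyte maturation and secondary granule genes. MMP9 was highest with atorvastatin alone, at 11.33, 10.88 and 10.96, against 9.70, 9.15 and 9.96 in the combination, 8.65, 8.62 and 7.92 with ATRA and 9.38, 8.94 and 9.01 in control cells.

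THBD encodes thrombomodulin, an anticoagulant receptor that ATRA is known to induce in APL cells. It was at 13.28, 13.32 and 12.38 in the combination and 10.91, 11.09 and 10.96 with ATRA, against 9.10, 9.17 and 8.55 with atorvastatin and 7.89, 7.72 and 7.89 in control cells. The 4 groups did not overlap, and the combination was 2.01 ± 0.22 above ATRA (adjusted p = 2.51e-05). Of 14 coagulation and fibrinolysis genes 3 rose and 0 fell; 1 was called when the combination array of experiment 1 or 2, or the ATRA array of experiment 1 or 3, was left out. PTGES, the inducible prostaglandin E synthase, was the 1 gene called among 17 of leukotriene and prostaglandin synthesis. Its arrays read 11.81, 11.62 and 11.82 in the combination, 9.78, 9.40 and 9.47 with ATRA, 6.18, 6.25 and 6.35 with atorvastatin and 7.004, 6.69 and 6.66 in control cells. The statin's change was 2.20 ± 0.14 with ATRA (adjusted p = 1.19e-07) and -0.53 ± 0.14 without it (adjusted p = 0.168).

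Several sterol synthesis genes were higher in the combination. HMGCS1, which makes the HMG-CoA that statins keep from being reduced, was at 9.57, 9.58 and 9.61 in the combination and 8.42, 8.17 and 8.27 with ATRA. Atorvastatin cells had 9.76, 9.81 and 10.10 and control cells 8.64, 8.65 and 8.97, so both statin groups lay above both groups without statin. The change was 1.30 ± 0.14 with ATRA and 1.13 ± 0.14 without it (adjusted p = 2.72e-05 and 0.000736). Of 20 measured genes of the mevalonate pathway and sterol synthesis, 5 rose and 0 fell, with a median change of 0.38 with ATRA and 0.36 without it; 3 were called without the ATRA array of experiment 1 or 2 or without the combination array of experiment 1 or 3. SC5D, a sterol desaturase, rose by 0.68 ± 0.14 (adjusted p = 0.00717). TM7SF2, a sterol reductase, rose by 0.70 ± 0.15 (adjusted p = 0.0122), or by 0.69 without the ATRA array of experiment 2 (adjusted p = 0.0529). LSS, lanosterol synthase, rose by 0.90 ± 0.22 (adjusted p = 0.0251), a call that ended without the ATRA array of experiment 1 (0.97, adjusted p = 0.0608) or 2 (0.70, adjusted p = 0.156) and without the combination array of experiment 1 (0.86, adjusted p = 0.105) or 3 (0.66, adjusted p = 0.0826).

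Regulators of sterol balance gave few calls. INSIG1, which retains the sterol sensor in the endoplasmic reticulum, differed by 0.39 ± 0.23 (adjusted p = 0.509), with arrays at 12.80, 12.55 and 13.02 in the combination and 12.84, 12.38 and 11.99 with ATRA that overlapped. Among genes of SREBP regulation and LDL uptake 2 of 13 rose. Of 12 cholesterol efflux and liver X receptor target genes 2 fell, among them PLTP, the phospholipid transfer protein (-0.86 ± 0.17, adjusted p = 0.00669), whose call ended without the ATRA array of experiment 1 (-0.69, adjusted p = 0.0536) and after median scaling. ABCA1, the cholesterol exporter, had arrays at 9.13, 9.22 and 9.31 in the combination and 9.35, 9.53 and 10.14 with ATRA, a change of -0.45 ± 0.19 that did not pass (adjusted p = 0.247); with atorvastatin alone it was at 7.78, 8.03 and 8.36 against 9.54, 9.61 and 9.48 in control cells, a fall that did pass (-1.49 ± 0.19, adjusted p = 0.000736). In fatty acid synthesis and desaturation 1 of 16 genes rose, and among RAS, RAP and RAL GTPases 1 of 17.

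The transcription factor KLF2, which statins are known to induce in endothelium, was at 8.49, 8.46 and 7.83 in the combination, 6.44, 6.34 and 6.30 with ATRA, 7.40, 7.68 and 6.95 with atorvastatin and 6.72, 6.30 and 6.52 in control cells. ATRA arrays overlapped with control arrays only, and the change in the comparison was 1.90 ± 0.20 (adjusted p = 1.91e-05). Its relative KLF6 was at 8.88, 8.71 and 8.54 in the combination, 6.23, 6.32 and 6.38 with ATRA, 7.77, 7.81 and 7.96 with atorvastatin and 7.38, 7.46 and 7.04 in control cells, a rise of 2.40 ± 0.14 over ATRA (adjusted p = 5.28e-08). The other 12 measured Krüppel-like factors did not pass. Of 25 immediate early and AP-1 genes 7 rose and 0 fell, among them the AP-1 subunits JUN (1.61 ± 0.21, adjusted p = 0.000164) and JUND (1.24 ± 0.16, adjusted p = 0.000164), the MAP kinase phosphatase DUSP5 (1.36 ± 0.24, adjusted p = 0.003) and the kinase SGK1 (1.21 ± 0.22, adjusted p = 0.0039). RIPOR2 rose by 2.80 ± 0.15 log2 units (adjusted p = 1.64e-08).

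The 2 largest falls among the called genes, DEFA3 and DEFA4, were azurophil granule genes. Of 14 measured, 5 were lower and 1 (LYZ) higher, with a median change of -0.57. ATRA itself raised the defensins: DEFA4, 3.77 ± 0.16 higher with ATRA than in control cells (adjusted p = 4.37e-11), was at 12.18, 12.29 and 12.81 in the combination and 13.65, 13.79 and 13.55 with ATRA, against 8.04, 8.10 and 8.01 with atorvastatin and 9.85, 9.98 and 9.83 in control cells. The combination arrays lay between the ATRA and the control arrays, and atorvastatin arrays lay below control. The statin's change was -1.23 ± 0.16 with ATRA and -1.84 ± 0.16 without it (adjusted p = 0.000122 and 1.58e-05).

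DEFA1 and DEFA3, near-identical copies whose probes may read each other's transcripts, changed by -1.22 ± 0.19 and -1.79 ± 0.25 with ATRA (adjusted p = 0.000798 and 0.000333) and by -1.92 ± 0.19 and -1.95 ± 0.25 without it (adjusted p = 7.04e-05 and 0.000773). In a fit over all 36 arrays, which holds the 2 libraries of 24 h that go against their labels, the adjusted p of DEFA1, DEFA3 and DEFA4 was 0.264, 0.0602 and 0.323. CTSG, cathepsin G, was at 9.26, 9.37 and 9.50 in the combination, 10.37, 10.35 and 9.98 with ATRA, 13.08, 13.21 and 12.64 with atorvastatin and 13.90, 14.17 and 13.41 in control cells, so the combination arrays were the lowest and the control arrays the highest. Its change against ATRA was -0.86 ± 0.19 (adjusted p = 0.0163); the call ended without the ATRA array of experiment 1 (-0.79, adjusted p = 0.0934) or 2 (-0.80, adjusted p = 0.0829), without the combination array of experiment 1 (-0.80, adjusted p = 0.0862) or 2 (-0.85, adjusted p = 0.0578), and after median scaling or in the authors' values. MPO, myeloperoxidase, differed by -0.71 ± 0.20 with an adjusted p of 0.0546, or 0.0393 with the experiment as a block. Of 11 promyelocyte line markers 0 rose and 2 fell, one of them CTSG and the other MS4A3. MS4A3, a marker of granulocyte-monocyte progenitors, fell by 1.03 ± 0.18 log2 units (adjusted p = 0.00272). The beta-defensin DEFB1 was at 8.28, 8.23 and 8.34 in the combination and 9.48, 9.64 and 9.31 with ATRA (-1.19 ± 0.19, adjusted p = 0.00119), and fell by a like amount without ATRA (-1.22 ± 0.19, adjusted p = 0.00407).

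Maturation and retinoid response genes, which ATRA itself moves, gave some rises. Of 30 granulocyte maturation and secondary granule genes, 5 rose and 0 fell (median 0.03), among them MCEMP1, a membrane protein of mast cells and myeloid cells (1.09 ± 0.18, adjusted p = 0.00134). Of 6 phagocyte NADPH oxidase genes 2 rose and 0 fell, or 1 without the ATRA or combination array of experiment 1 or 2. The catalytic subunit CYBB rose by 1.02 ± 0.20 (adjusted p = 0.00498). NCF1, the p47phox subunit, was at 14.85, 14.98 and 14.71 in the combination, 13.67, 13.95 and 14.48 with ATRA, 9.11, 8.78 and 9.55 with atorvastatin and 7.78, 7.60 and 7.54 in control cells; the change over ATRA was 0.81 ± 0.20 (adjusted p = 0.0301). That call ended without the ATRA array of experiment 1 (0.63, adjusted p = 0.181) or 2 (0.77, adjusted p = 0.123), without the combination array of experiment 1 (0.81, adjusted p = 0.103) or 2 (0.74, adjusted p = 0.123), after median scaling and in the authors' values, and NCF1 has near-identical pseudogenes that its probe may also read.

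Of 24 retinoid response genes 3 rose and 1 fell (median -0.02). STRA6, the receptor that imports retinol, was at 9.04, 9.15 and 8.62 in the combination and 6.88, 7.34 and 7.35 with ATRA (1.75 ± 0.17, adjusted p = 7.76e-06), and CYP26B1, which degrades retinoic acid, rose by 0.81 ± 0.14 (adjusted p = 0.00242). ASB2, an early target of ATRA in APL cells, was at 11.75, 11.87 and 11.92 in the combination and 11.27, 11.30 and 11.67 with ATRA, with a difference of 0.43 ± 0.15 (adjusted p = 0.159, or 0.0296 after median scaling). CD38, another early target, was at 11.34, 11.57 and 11.49 in the combination and 11.15, 11.69 and 11.80 with ATRA, and the groups overlapped (adjusted p = 0.931).

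MYC and many genes of ribosome production fell. MYC, the transcription factor that drives growth and ribosome production, was at 10.38, 10.48 and 10.58 in the combination, 11.24, 12.18 and 11.38 with ATRA, 11.98, 12.04 and 12.32 with atorvastatin and 12.80, 13.26 and 12.93 in control cells. The combination arrays were the lowest and the control arrays the highest, while ATRA and atorvastatin arrays overlapped. MYC fell by 1.12 ± 0.20 log2 units against ATRA (adjusted p = 0.00352). MXD4, which competes with MYC for its partner MAX, rose by 0.86 ± 0.16 (adjusted p = 0.00487), and the other 8 measured genes of the MYC network did not pass.

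Of 30 measured genes of ribosome biogenesis and the nucleolus, 15 fell and 0 rose, with a median change of -0.62 with ATRA and -0.16 without it. The number called was 13 in the authors' values and 3 after median scaling, where the median change was -0.37 while that of all genes stood at 0.083, and 8, 7, 8 or 8 when the ATRA or combination array of experiment 1 or the ATRA or combination array of experiment 2 was left out. POLR1B, a subunit of RNA polymerase I, was at 7.66, 7.52 and 7.45 in the combination and 8.77, 8.41 and 8.30 with ATRA (-0.95 ± 0.15, adjusted p = 0.00096). The nucleolar helicase DDX21 was at 10.70, 10.63 and 10.73 in the combination and 11.50, 11.50 and 11.49 with ATRA (-0.81 ± 0.14, adjusted p = 0.00206). UTP4, a processing factor of 18S ribosomal RNA, fell by 0.87 ± 0.16 log2 units (adjusted p = 0.00326, or 0.13 after median scaling), and NHP2, a protein of the pseudouridylation complexes, by 0.84 ± 0.16 (adjusted p = 0.00492, or 0.0504 after median scaling). Nucleolin (NCL), the most abundant nucleolar protein, changed by -1.02 ± 0.22 (adjusted p = 0.0126); its call ended without the combination array of experiment 1 (-1.004, adjusted p = 0.0546) or the ATRA array of experiment 2 (-0.82, adjusted p = 0.0863).

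MYC and its relatives bind the E-box CACGTG, which was searched in the same 300-base windows. Here too a match is not evidence of binding, and the part of MYC in the falls was not tested. The sets compared were not matched for intensity. The E-box was present in 9.09% of the 12450 matched promoters of genes tested. It was in 19.7% of the 208 of genes that fell and in 7.51% of the 346 of genes that rose. In the ribosome biogenesis list 9 of 24 promoters held it (37.5%). Among the 12 matched members of that list that fell, the share was lower, at 3 (25%). UTP4 (chr16:69132399-69132698, plus strand) is printed as the called member with the largest fall among those 3, with the E-box in capitals 16 bases before the start.
UTP4: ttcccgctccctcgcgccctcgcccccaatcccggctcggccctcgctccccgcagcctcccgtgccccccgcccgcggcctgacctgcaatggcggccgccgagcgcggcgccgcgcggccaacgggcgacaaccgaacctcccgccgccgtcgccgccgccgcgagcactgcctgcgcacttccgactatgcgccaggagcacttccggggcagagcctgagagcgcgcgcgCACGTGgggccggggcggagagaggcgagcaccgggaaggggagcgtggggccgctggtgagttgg

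Proteins of the ribosome itself and the cell cycle gave few calls. None of 64 cytosolic ribosomal protein genes passed (median -0.19), nor any of 34 DNA replication genes (median -0.28) or 30 respiratory chain genes (median -0.13), and 1 of 30 mitosis genes rose. At an unadjusted p under 0.05 in limma, 10 of the ribosomal protein genes, 9 of the replication genes and 4 of the respiratory genes were lower and 0 higher. Among 17 CDK inhibitors, D cyclins and RB family genes 3 rose and 1 fell. CDKN1A, which encodes p21, was at 9.43, 9.56 and 9.90 in the combination and 8.29, 8.46 and 9.34 with ATRA; the change of 0.94 ± 0.22 (adjusted p = 0.0208) lost its call without the ATRA array of experiment 1 (0.73, adjusted p = 0.136) or 2 (0.82, adjusted p = 0.115) and without the combination array of experiment 2 (0.97, adjusted p = 0.0565) or 3 (0.80, adjusted p = 0.0588). CDKN2D, the p19 inhibitor, rose by 0.77 ± 0.16 (adjusted p = 0.00868), or by 0.66 and 0.70 without the ATRA array of experiment 1 or 2 (adjusted p = 0.0654 and 0.0588).

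Large falls outside these lists were seen for PHACTR3, HAGHL, FKBP4, SOX18 and CDCA7, of which HAGHL was not called after median scaling. PHACTR3, a regulator of protein phosphatase 1 and actin, was at 8.57, 8.36 and 8.75 in the combination and 10.02, 9.82 and 9.49 with ATRA (-1.22 ± 0.17, adjusted p = 0.000324). FKBP4, a cochaperone of steroid receptors, was at 9.67, 9.16 and 9.49 in the combination and 10.55, 10.56 and 10.43 with ATRA (-1.07 ± 0.16, adjusted p = 0.000731). CDCA7, a MYC target, was at 9.60, 9.73 and 10.02 in the combination and 10.87, 10.65 and 10.95 with ATRA (-1.04 ± 0.17, adjusted p = 0.00118). DPCD stood at 7.31, 7.43 and 5.67 in the combination, lowest in experiment 3, and 8.08, 7.86 and 8.12 with ATRA. Its adjusted p of 0.0303 was 0.122, 0.0736 and 0.0882 without the ATRA array of experiment 1, 2 and 3, and it did not pass after median scaling or in the authors' values.

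The remaining lists gave few calls. In lists with under 5 calls, leaving out 1 array often moves the count by over 1.5 times, and without the ATRA array of experiment 1 it fell to 0 for the BCL2 family, HLA, SREBP, cholesterol efflux, fatty acid and RAS lists, so these counts are descriptions only. Of 29 interferon response genes 0 passed in limma (median 0.21; 2 at an unadjusted p under 0.05), and their mean level ran from 8.51 to 10.29 over the combination arrays and from 8.35 to 9.92 over the ATRA arrays, so the range over experiments was wider than the difference between groups. Among lysosomal genes 4 of 26 rose, among them CTSD, cathepsin D (1.07 ± 0.16, adjusted p = 0.000537); of 26 glycolysis and hypoxia genes 2 rose and 1 fell, with HK3, the hexokinase of leukocytes, at 1.09 ± 0.15 (adjusted p = 0.000289). Of 23 heat shock and oxidative stress genes 2 rose, NQO1 (0.84 ± 0.17, adjusted p = 0.0065), a quinone reductase, and SOD2 (0.76 ± 0.15, adjusted p = 0.0052), the mitochondrial superoxide dismutase. Of 16 BCL2 family genes 3 rose, of 20 HLA and peptide loading genes 2 rose, and of 27 genes of the integrated stress and unfolded protein response 1 fell.

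**Figure D3:**
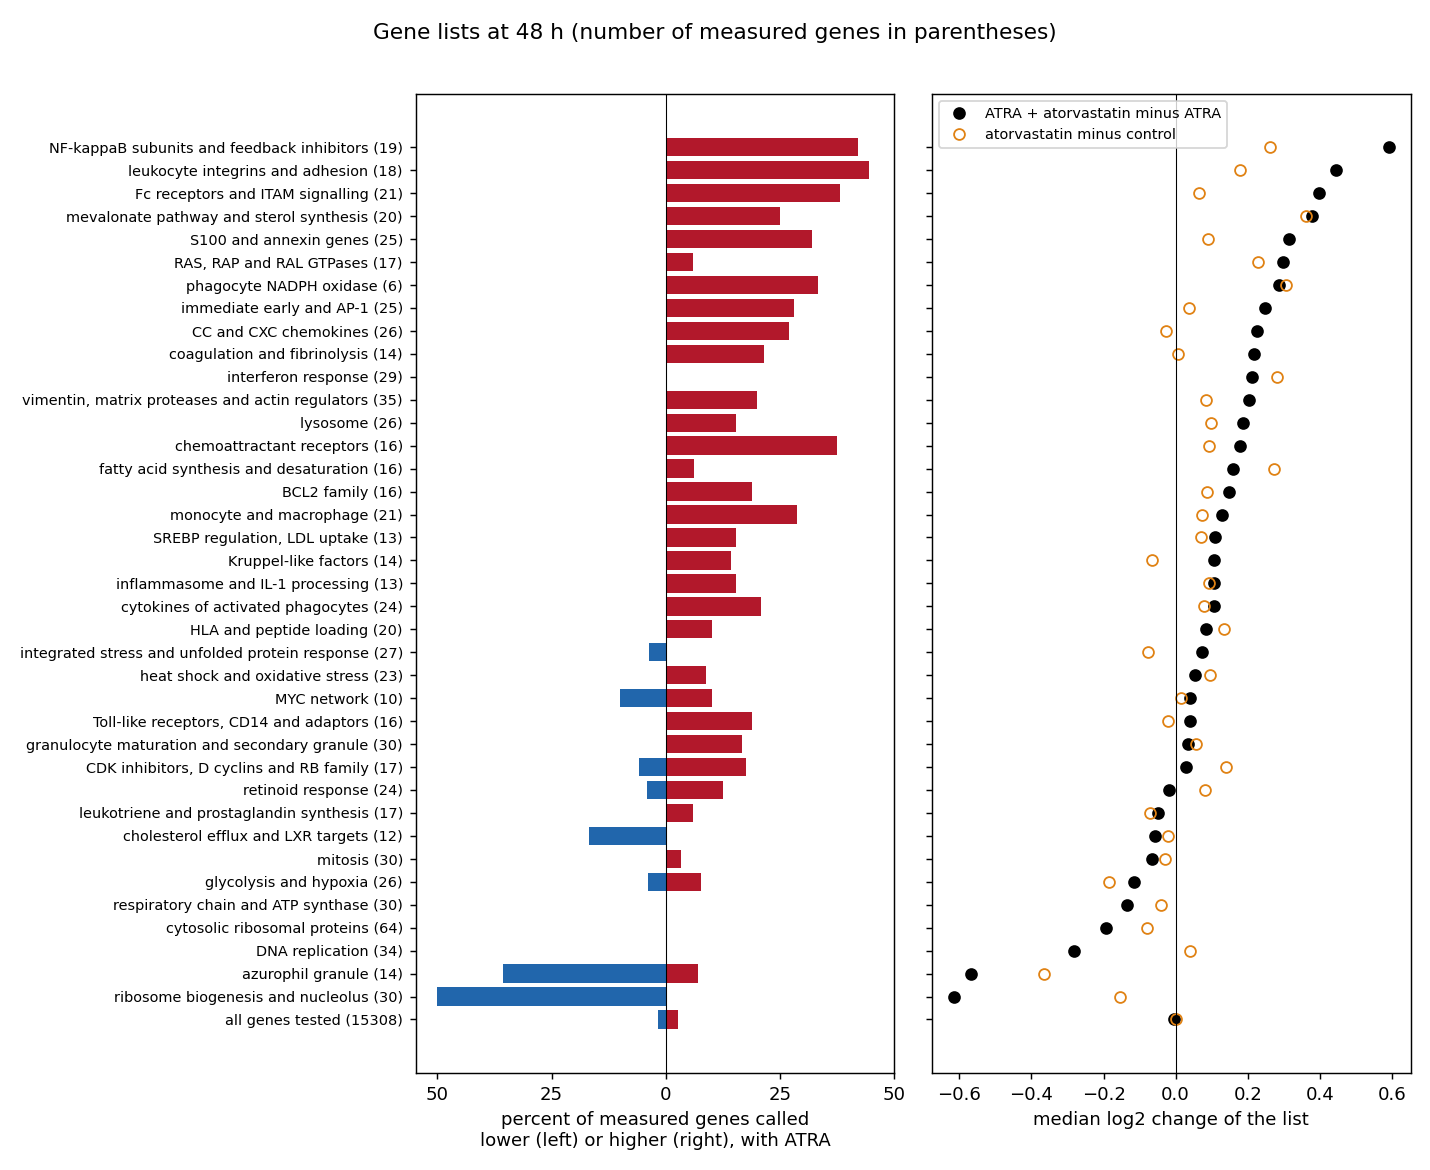
Left, the percentage of each list's measured genes that were called higher (red, to the right) or lower (blue, to the left) in the combination than with ATRA; right, the median log2 change of each list with ATRA (filled) and without it (open). Ribosome biogenesis (15 of 30 lower) and azurophil granule genes (5 of 14 lower) lie at the bottom, just over the bars for all genes tested (2.72% higher and 1.67% lower).

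The same statin change was measured without ATRA on 6 other arrays. Atorvastatin against control changed 62 genes at 48 h (0.405% of those tested), 49 higher and 13 lower (15 of 31 higher after median scaling); the experiment as a block raised the count to 126, and omission of the combination array of experiment 3, which enters through the shared estimate of the spread, to 97. Of the genes called with ATRA, 575 of the 673 had the same sign without it, against 8969 of all 15308 genes, and the median change of the 417 rises was 0.87 with ATRA and 0.31 without it, that of the 256 falls -0.71 and -0.22. The 673 genes were picked on the first of these changes, which by itself makes it the larger on average. Across the 417 rises the 2 changes had a Pearson's r of 0.45, across the 256 falls 0.50, across both joined, which were selected for opposite signs, 0.71, and across all genes 0.41, from arrays that share experiments and normalization.

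The test of the difference itself, the interaction of statin and ATRA, called 47 genes (0.307% of those tested). Of these, 44 had a more positive change in the presence of ATRA and 3 a more negative one. Among the 44, 43 were also higher in the combination than with ATRA. The interaction includes that comparison and its arrays, so this overlap follows in part from the construction and is not separate evidence. A block for the experiment gave 77 genes, and after median scaling, where the median interaction of all genes was 0.16, 105. The count fell to 9 and 17 without the ATRA array of experiment 1 or 2, to 16 and 23 without the combination array of experiment 1 or 2, to 25 and 28 without the atorvastatin array of experiment 2 or 3, and to 30 and 13 without the control array of experiment 1 or 3, and was 77 without the combination array of experiment 3.

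IL1B and PTGES had the smallest adjusted p. IL1B changed by 3.87 with ATRA and 0.58 without it, a difference of 3.29 ± 0.22 (adjusted p = 9.88e-07), and PTGES by 2.20 and -0.53, a difference of 2.73 ± 0.20 (adjusted p = 2.25e-06). PTGES with atorvastatin, IL1B in control cells, S100A8 in both groups without ATRA and KLF6 with ATRA read near the median of all probes. The changes measured from these levels, and the exact size of the differences for these genes, are uncertain. S100A8 (1.71 ± 0.17, adjusted p = 0.000103), RIPOR2 (2.12 ± 0.22, adjusted p = 0.000103), KLF6 (1.84 ± 0.20, adjusted p = 0.000272) and CCL3L1 (2.96 ± 0.43, adjusted p = 0.00457) also passed whichever single array was left out. KLF6 lost the call under 1 of 11 other alternatives, which were choices of processing, model or array set. CCL4, CCL3 and VIM passed with all 12 arrays, with differences of 2.97 ± 0.55, 2.76 ± 0.50 and 1.81 ± 0.31 (adjusted p = 0.0238, 0.0235 and 0.0157), but lost the call without single arrays, where the highest adjusted p was 0.113, 0.112 and 0.0676. For HMGCS1, S100A4 and DEFA3 the difference was 0.17 ± 0.20, 0.067 ± 0.26 and 0.16 ± 0.35 (adjusted p = 0.956, 0.993 and 0.985), and no difference was shown.

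In the other direction, IL32, an inflammatory cytokine, was at 7.17, 7.22 and 6.97 in the combination, 7.26, 7.29 and 6.87 with ATRA, 8.73, 8.88 and 8.81 with atorvastatin and 7.29, 7.41 and 7.52 in control cells. With the statin it rose by 1.40 ± 0.14 without ATRA (adjusted p = 0.000104) and changed by -0.02 ± 0.14 with it (adjusted p = 0.982), and the difference between the 2 changes was -1.42 ± 0.20 (adjusted p = 0.00455). IL2RB, a chain of the interleukin-2 receptor, was at 7.45, 7.27 and 7.47 in the combination, 8.09, 8.04 and 8.48 with ATRA, 7.54, 7.46 and 7.73 with atorvastatin and 7.09, 7.23 and 7.30 in control cells (-1.18 ± 0.21, adjusted p = 0.0182, up to 0.0713 without single arrays). CCDC85B was the third (-1.16 ± 0.21, adjusted p = 0.0235, up to 0.107 without single arrays).

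**Figure D4:**
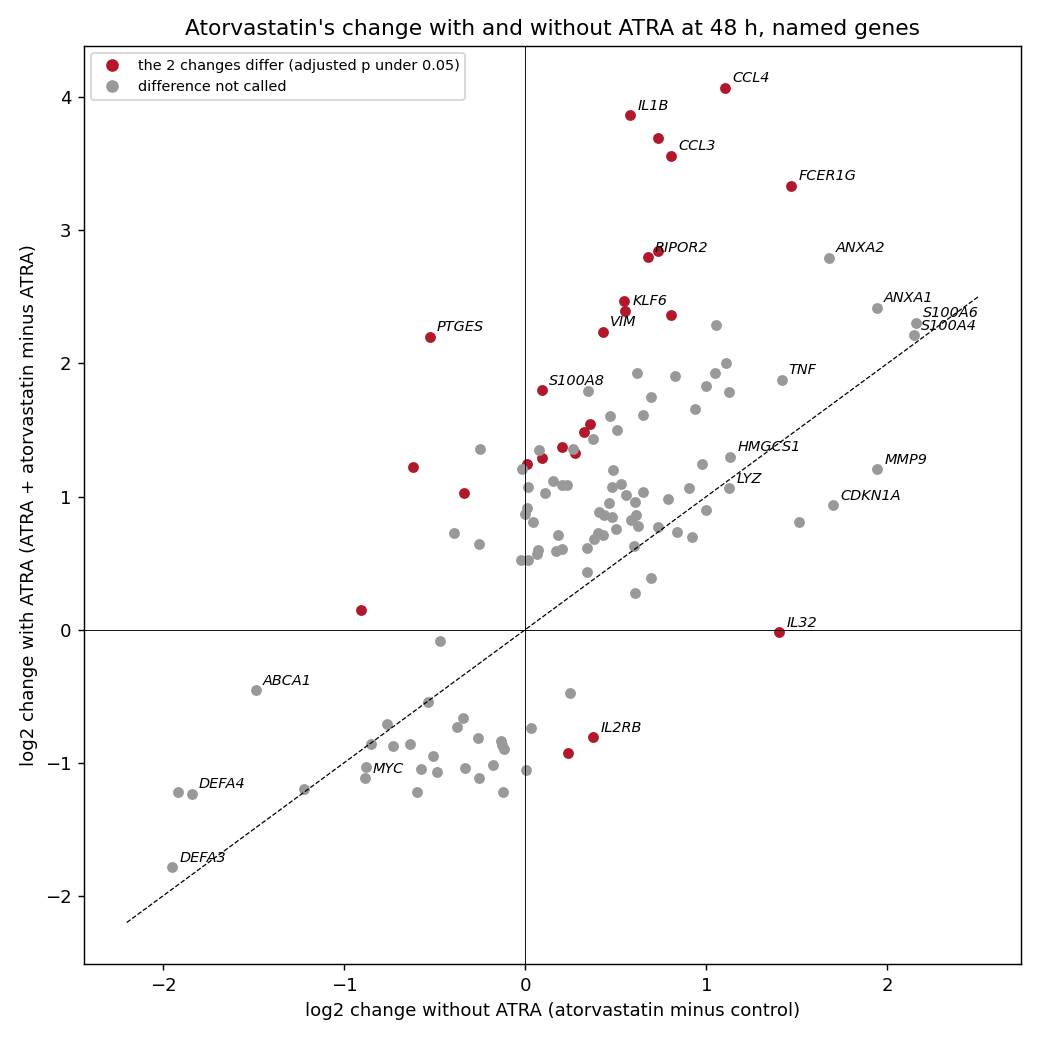
For the genes named by rule or in the text, the log2 change with ATRA (ATRA plus atorvastatin minus ATRA, vertical) against that without ATRA (atorvastatin minus control, horizontal) at 48 h; the dashed line marks equal change and red genes are those whose 2 changes differ at an adjusted p under 0.05. IL1B, CCL4, CCL3 and PTGES lie far above the line, S100A4, S100A6 and HMGCS1 on or near it, and IL32 below it.

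At the earlier times the same comparison gave almost no calls. At 8 h, 2 genes were called (0.0131%), ZC3HAV1, an antiviral zinc finger protein, and TSC22D3, the glucocorticoid-induced leucine zipper. ZC3HAV1 was at 11.21, 11.17 and 11.31 in the combination and 9.60, 9.96 and 9.74 with ATRA at 8 h (1.46 ± 0.13, adjusted p = 1.57e-06), but at 48 h its change was 0.28 ± 0.17 and did not pass (adjusted p = 0.512). TSC22D3 changed by 1.32 ± 0.14 at 8 h (adjusted p = 4.47e-05) and by 1.66 ± 0.24 at 48 h (adjusted p = 0.000482). At 24 h, 1 gene (0.00653%) was called with all 12 arrays, ADGRE5 (1.21 ± 0.16, adjusted p = 0.033). Without the 2 libraries that go against their labels, 24 genes were called at 24 h, 23 higher and 1 lower, and 21 of the 23 were also called higher at 48 h. They included KLF2 (2.10 ± 0.16, adjusted p = 4.91e-06), KLF6 (1.94 ± 0.15, adjusted p = 6.82e-06), CCL4 (2.09 ± 0.33, adjusted p = 0.0113), JUN (1.24 ± 0.17, adjusted p = 0.00392), ANXA2 (1.24 ± 0.15, adjusted p = 0.00108) and VIM (1.19 ± 0.18, adjusted p = 0.00921). The 1 lower gene was ABCA1 (-0.92 ± 0.14, adjusted p = 0.00775).

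IL1B was called at neither earlier time. It was at 6.51, 6.98 and 6.77 in the combination and 6.64, 7.05 and 6.47 with ATRA at 8 h, and at 6.52, 6.54 and 6.72 in the combination and 6.79, 6.69 and 6.52 with ATRA at 24 h, with the first ATRA value from a library that goes against its label. Groups overlapped at both times, and without the 2 libraries the change at 24 h was -0.014 ± 0.14 (adjusted p = 0.997). KLF2 was not called at 8 h either (0.58 ± 0.13, adjusted p = 0.509 in limma), although its arrays did not overlap. They read 7.04, 6.83 and 7.09 in the combination and 6.46, 6.36 and 6.41 with ATRA. The share of all genes whose arrays do not overlap at 8 h was not counted. MYC changed by 0.034 ± 0.14 at 8 h (adjusted p = 1).

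The difference between the change at 48 h and that at 8 h was itself tested on the 24 arrays of those times and called 287 genes (1.87% of those tested), 239 with a more positive and 48 with a more negative change at 48 h. It passed for CCL4 (4.31 ± 0.45, adjusted p = 4.84e-07), IL1B (3.83 ± 0.24, adjusted p = 6.33e-11), CCL3 (3.76 ± 0.42, adjusted p = 1.41e-06), VIM (2.07 ± 0.25, adjusted p = 6.52e-06), KLF6 (1.62 ± 0.21, adjusted p = 1.72e-05), KLF2 (1.32 ± 0.24, adjusted p = 0.00156), HMGCS1 (0.95 ± 0.19, adjusted p = 0.00448) and MYC (-1.15 ± 0.26, adjusted p = 0.0122).

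**Figure D5:**
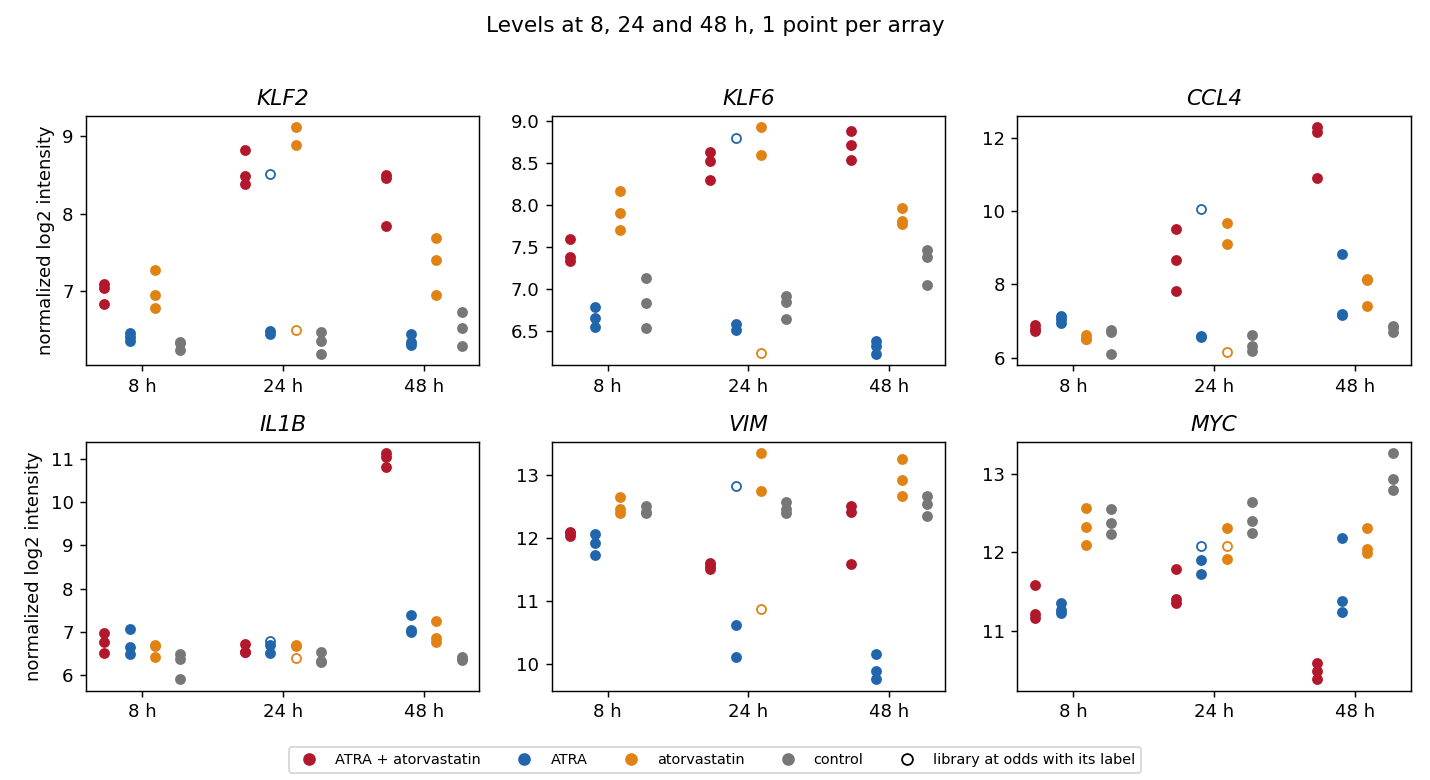
Normalized log2 intensity at 8, 24 and 48 h in cells given ATRA plus atorvastatin, ATRA, atorvastatin and neither, 1 point per array; open points are the 2 libraries of 24 h that go against their labels. The combination lies above ATRA for KLF2 and KLF6 from 8 h, although neither was called at 8 h. It lies above ATRA for CCL4 and VIM from 24 h apart from the open points, and for IL1B at 48 h. For MYC the combination lies below ATRA at 48 h.

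Several genes have more than 1 probe on the array, and the values above are those of the brightest. Of the 13 named genes with several probes, 11 had another probe that moved by under 50% as much or the other way, and for ADGRE5, CD86, CDCA7, CDKN1A, CDKN2D, PHACTR3, PLTP, TSC22D3 and VCL that probe read between 6.01 and 6.88 with ATRA, near the median of all probes. The other probes of INSIG1 and ZC3HAV1 were brighter: that of INSIG1 read 9.37 with ATRA and changed by 0.17, and those of ZC3HAV1 read 8.46 and 7.96 and changed by 0.098 and -0.22 at 48 h. For S100A4 and LMNA the second probe changed by 2.10 and 1.15.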

How the data were processed

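RNA of NB4 cells was measured on 36 Illumina Human-6 BeadChips (12 groups of 3). The deposited files hold 1 average intensity per probe, on a linear scale and without background correction, made with BeadStudio 1.3.1.5 per the labels and the submitters' processing notes. The authors also deposited log2 normalized values, whose normalization is not given in the sources used here (column medians 6.681 to 6.692, each column best matched by its own array); they served as an alternative. No genome build is given, and sequences are from RefSeq GRCh38.p14.

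Intensities were corrected with limma 3.58.1 in R 4.3.3 (normexp on the signals, offset 50), quantile normalized over 36 arrays and taken to log2. A probe stayed if it exceeded the median of its own array 3 or more times among the arrays, which left 41648 of 47293. Of all probes, 18468 had 1 gene symbol, and the other 28825 had none or more than 1 and were not used. The brightest probe of each symbol gave 15308 genes. No 2 arrays were identical. Each fit used group means over the 12 arrays of 1 time (8 residual degrees of freedom), with moderated two-sided tests and Benjamini-Hochberg adjustment at 0.05; the comparison of 48 h with 8 h used the 24 arrays of both times. The fits were tested on simulated data.

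The series' design text gives the 3 replicates as independent experiments on different days. Same-numbered combination and ATRA arrays deviated together from their group means (r 0.19, 0.32 and 0.41), whereas atorvastatin and control arrays did so less (0.17, 0.057 and 0.11).

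The members and the 42 gene lists (948 genes, 854 measured) were chosen with earlier results of these data known. Genes were named by a rule: CCL4, CCL3, IL1B and VIM; the 12 largest rises and 12 largest falls with separated arrays; up to 4 called genes in each direction of each list; the 6 largest interactions in each direction; and 14 genes known from granulocytes, retinoids or statins, 1 of which is not reported here. CXCL8, CCL20, CCL7, NFKBIZ, DDX21, NHP2, TSC22D3, ZC3HAV1 and MS4A7 were named after their values were seen. Alternatives were other background, scaling, filter, probe and moderation choices, the authors' values, other sets of arrays, a replicate block and leaving out arrays.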

Additional observations from a re-analysis of the deposited data

Results flagged for a closer look

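The change that atorvastatin gave at 48 h differed between cells with and without ATRA, by the interaction test, for 25 of the genes followed here. Of these calls 7 held whichever single array was left out (IL1B, CCL3L1, PTGES, RIPOR2, KLF6, S100A8 and IL32), and 18 ended without at least 1 array, with a highest adjusted p between 0.0612 (FCER1G) and 0.177 (CYBB) in limma. ADGRE5 and MS4A7 lost the call in 10 of 12 omissions, CCL4, CCL20, TRAF1 and CYBB in 9, CCL3, CCL7, IL1A and CCDC85B in 8, IL2RB in 6, FPR1 and CD86 in 5, C5AR1, HAVCR2 and VIM in 4, and FCER1G and TNFAIP6 in 1. Under 11 other alternatives (processing, model or array set), KLF6 and IL32 each lost the call in 1. IL1B, CCL3L1, PTGES, RIPOR2 and S100A8 lost it in 0, and CYBB lost it in 4, the most of these genes. Among secreted mediators the change with ATRA minus that without it was 3.29 log2 units for IL1B, 2.97 for CCL4, 2.96 for CCL3L1, 2.76 for CCL3, 1.84 for CCL20, 1.23 for IL1A and 1.05 for CCL7, and 2.73 for the prostaglandin synthase PTGES. Among receptors and their signalling chains it was 2.11 for C5AR1, 1.87 for FCER1G, 1.56 for HAVCR2, 1.20 for CD86, 1.18 for ADGRE5 and 1.17 for FPR1. For MS4A7 it was 1.05, made up of a change of 0.15 ± 0.15 with ATRA (adjusted p = 0.784) and of -0.90 ± 0.15 without it (adjusted p = 0.00599, limma). For the remaining genes with a more positive change under ATRA it was 2.12 for RIPOR2, 1.92 for TNFAIP6, 1.84 for KLF6, 1.81 for VIM, 1.71 for S100A8, 1.36 for the oxidase subunit CYBB and 1.16 for TRAF1. The change was more negative under ATRA for IL32 (-1.42), IL2RB (-1.18) and CCDC85B (-1.16).

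The change between combination and ATRA also differed between 48 h and 8 h. The value at 48 h minus that at 8 h was 4.31 for CCL4, 3.83 for IL1B, 3.76 for CCL3, 2.07 for VIM, 1.62 for KLF6, 1.32 for KLF2 and 0.95 for HMGCS1. It was -1.15 for MYC and -1.18 for ZC3HAV1, the gene called at 8 h and not at 48 h.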

How the results depend on the processing

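Of the 93 named genes called in the comparison of combination with ATRA at 48 h, 82 were called whichever single array was left out. Many of these genes were named for large changes on the same arrays, so their stability is not that of all calls. Of all 673 genes, 312 stayed called without the ATRA array of experiment 1, the fewest for a single array. Without the atorvastatin array of experiment 1 it was 670, the most. The count of 673 genes was 1162 in a fit over all arrays but the 2 libraries of 24 h that go against their labels, and 177 at a change of at least 1 log2 unit; with single arrays or whole experiments left out it ran from 144 to 764, with fewer arrays in each fit. With the replicate block it was 900. The interaction called 105 genes after median scaling, 78 in the authors' values, 79 over all 36 arrays, 77 with the replicate block, and 2 to 77 with arrays left out. Atorvastatin against control called 31 after median scaling, 118 over all 36 arrays, 126 with the replicate block, 35 at 1 log2 unit, and 7 to 106 with arrays left out. At 8 h the authors' values gave 5 calls. At 24 h they gave 3, median scaling gave 0 in limma (309 at an unadjusted p under 0.05), and omission of the 2 libraries gave 24. Apart from the construction of fits with fewer or more arrays, the cause was not tested. In the comparison of combination with ATRA, 2 named genes that were not called changed sign: CD38 was at 0.12 after median scaling and between -0.281 and 0.0439 with arrays left out, and IL32 at 0.20 after median scaling, 0.0889 in the authors' values and between -0.154 and 0.0552 with arrays left out. With the replicate block MPO passed the test at 48 h (adjusted p = 0.0393 in limma), and it changed the call of no other named gene. Another 2 alternatives were added after the data were seen: robust, trended moderation, and leaving out genes that 1 array holds far below its group. Genes near 6.34, the median of all probes, are close to background, which limits what can be said of their falls and of the size of their rises.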
